A study of Mus musculus with 8 samples.

Results

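The enzymes of de novo purine synthesis were followed as 10 genes, taken from the deposited table by gene symbol in the order of the pathway: Ppat, Gart, Pfas, Paics, Adsl and Atic, which build inosine monophosphate (IMP), and Impdh1, Impdh2, Gmps and Adss, which turn IMP into guanosine and adenosine monophosphate (GMP and AMP). They are 10 of 34369 gene symbols measured, and each matched 1 row. RNA was sequenced from cultured mouse iPS cells (induced pluripotent stem cells, made by reprogramming differentiated cells). The mutator group (labelled D257A homo, 5 libraries) was homozygous for the D257A change in POLG, the DNA polymerase of mitochondria, and the other group was wild type (3 libraries), from littermates taken as embryos. Both groups were cultured with LIF on arrested feeder cells and spent 1 passage on gelatin before extraction. The labels name no further treatment and give neither the cell that was reprogrammed nor the passage.

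Purine nucleotides are made on a ribose phosphate, PRPP, to which nitrogen and carbon atoms are added in steps until the purine ring of IMP is closed. PPAT commits PRPP to the pathway, and glutamine, glycine, aspartate and formyl folate, a one-carbon carrier whose carbon comes largely from serine, supply atoms of the ring. Dividing cells lean on this route because salvage of existing bases does not cover the purines needed to copy DNA and make RNA.

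In the mutator libraries most of these transcripts were lower than in the wild-type libraries, but 1 of the 10, Ppat, passed the test. Values are FPKM, fragments scaled to the length of the transcript and to the number mapped in the library, and changes are differences of log2(FPKM + 1), mutator minus wild type, from limma with Benjamini-Hochberg adjustment over the 11949 genes that averaged 1 FPKM or more. All 10 enzymes were among the genes tested. Of all genes tested, 7.49% passed an adjusted p of 0.05, 4.54% as lower, and 1 call in 10 is near that background. The log2 change was below 0 for 9 of the 10, against 52.4% of all genes tested. Their median was -0.63, against -0.03 over all genes tested, and 7 of the 10 lay below the first quartile of all genes, which was -0.38. By mean level the enzymes stood between the 65.3rd and 97.9th percentiles of all genes tested. Over the 6221 genes that averaged 5 FPKM or more the median was -0.15. All 5 mutator libraries lay below all 3 wild-type libraries for Ppat, Paics, Atic, Gmps and Adss, 5 of 10, against 15.9% of all genes tested. At an unadjusted p under 0.05 there were 6 of the 10, against 30.3% of all genes tested. Rescaling each library to TPM raised the median change of all genes to 0.37. It left 0 of 10 without overlap, 0 past the threshold and Pfas and Impdh1 above 0. Relative to that median 9 of 10 were still below. The share of all genes without overlap was not counted under TPM. In bulk RNA of this kind, fewer cells of a type and less RNA per cell cannot be told apart.

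**Figure D1:**
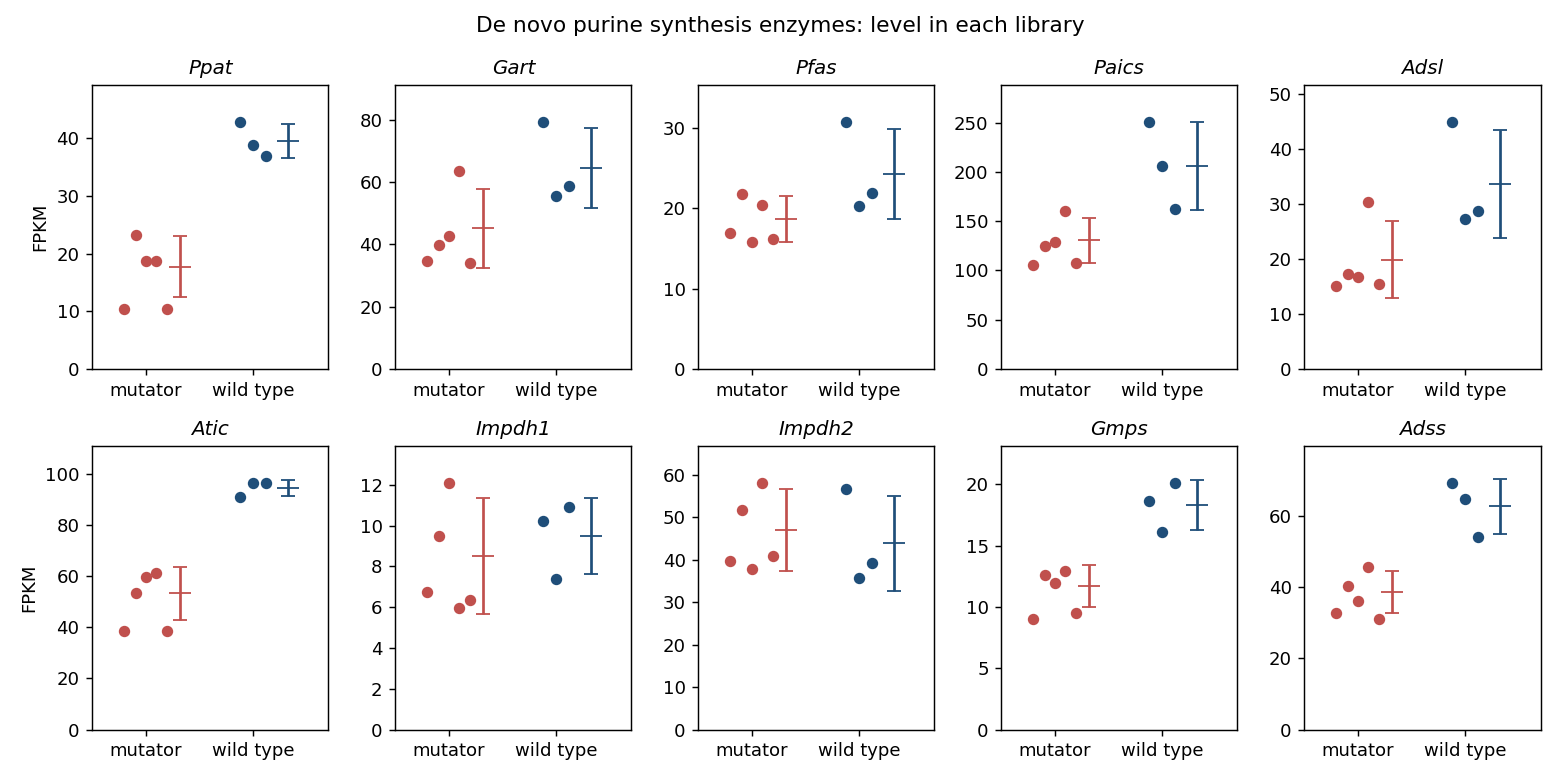
FPKM (vertical axes, each from 0) of the 10 enzyme transcripts in the 5 mutator and 3 wild-type libraries. Points are libraries; horizontal marks with bars are means ± SD over 4 mutator samples (replicates 1 and 2, the outermost points, count as 1) and 3 wild-type samples. The points of the groups are apart for Ppat, Paics, Atic, Gmps and Adss and overlap for the other 5 genes.

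Mutator replicates 1 and 2 were counted as 1 sample, which leaves 4 mutator and 3 wild-type samples. Across genes of high level their log2 values differed by a median of 0.031, against 0.132 to 0.541 in the 12 other pairs of libraries of 1 genotype, and their spread relative to that of sampling was 1.93 times as large in high as in low genes, against 4.16 to 23.9 times in the other pairs, so the pair differed by close to the noise of sampling fragments. The series' design text describes the 5 mutator lines as independent, while the column headers of that pair share a code. The headers of the wild-type libraries also share a number, so wild-type lines may have a common origin, and p-values then measure only the spread between these samples. Depth was not recorded; the smallest non-zero values put mutator replicates 1 and 2 and wild-type replicate 3 at 0.498 to 0.504 of the deepest library and the others at 0.851 or more. Polg itself measured 10.2 ± 1.93 FPKM in mutator and 9.48 ± 0.539 FPKM in wild-type samples (SD, n = 4 and 3), and a base substitution need not alter this level. All 10 pluripotency markers examined averaged 1 FPKM or more, with a summed level of 432.1 to 694.9 FPKM in mutator and 588.7 to 853.4 FPKM in wild-type libraries. Of them 1 rose, Tbx3, at 1.31 on the log2 scale (limma adjusted p = 0.039), and 9 did not pass. The log2 change was below 0 for 5 of the 10 markers and above 0 for 5. Pou5f1, named after its values were seen, measured 103 to 188 FPKM in mutator and 239 to 291 FPKM in wild-type libraries. Its log2 change of -0.85 did not pass (limma adjusted p = 0.072).

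Ppat and Paics, the genes of the first and a middle enzyme of the route, lie head to head on chromosome 5, and their promoters are shown because the pair holds the gene that passed the test and the most abundant member. In GENCODE M21 (GRCm38) Ppat (ENSMUSG00000029246) spans 76913249 to 76951578 on the minus strand and Paics (ENSMUSG00000029247) spans 76951307 to 76967509 on the plus strand. Their starts are 271 bases apart, and their first exons overlap by 272 bases on opposite strands, 6.15% of the exonic length of Ppat and 8.67% of that of Paics. The strand setting of the counting is not given in the sources used here, so fragments from those bases may have been shared. The Atic promoter is shown with them because Atic had the next smallest p. The windows are from RefSeq (GRCm38.p6), each 300 bases long and written 5′ to 3′ on the gene's strand, ending 50 bases past the RefSeq start. Capitals mark matches to the motifs named after them.
Ppat, chr5:76951529-76951828, minus strand: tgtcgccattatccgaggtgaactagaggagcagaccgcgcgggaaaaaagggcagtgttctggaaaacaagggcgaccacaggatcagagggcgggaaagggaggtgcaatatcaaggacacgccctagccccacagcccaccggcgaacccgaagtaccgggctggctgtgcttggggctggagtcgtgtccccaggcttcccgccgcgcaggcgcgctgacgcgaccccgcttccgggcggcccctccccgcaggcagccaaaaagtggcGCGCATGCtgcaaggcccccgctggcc
Paics, chr5:76951052-76951351, plus strand: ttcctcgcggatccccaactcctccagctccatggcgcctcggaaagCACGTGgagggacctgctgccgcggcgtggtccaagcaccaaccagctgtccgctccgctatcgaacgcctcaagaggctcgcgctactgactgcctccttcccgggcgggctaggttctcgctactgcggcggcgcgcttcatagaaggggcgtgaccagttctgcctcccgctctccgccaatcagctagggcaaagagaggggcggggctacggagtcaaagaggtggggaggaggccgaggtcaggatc
Atic, chr1:71556906-71557205, plus strand: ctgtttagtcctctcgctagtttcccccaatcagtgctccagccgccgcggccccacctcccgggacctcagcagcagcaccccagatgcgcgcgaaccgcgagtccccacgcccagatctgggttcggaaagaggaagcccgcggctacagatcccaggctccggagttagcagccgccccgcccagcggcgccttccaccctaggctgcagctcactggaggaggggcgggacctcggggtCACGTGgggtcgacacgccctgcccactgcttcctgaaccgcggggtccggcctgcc

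Motifs were searched on both strands in the RefSeq windows of 9 members; Pfas was not matched. The E-box CACGTG, a sequence bound by MYC and related factors, was in 3 of the 10 windows of these 9 genes, against 7.15% of all 32851 windows. It began at position -203 of Paics, -7 of Atic and -110 of Impdh2, counted from the RefSeq start with 0 as its first base. The RefSeq start of Impdh2 lies 150 bases inside the GENCODE gene given further on, so that this match is at position 40 from the GENCODE start, while those of Paics and Atic are at -208 and -1. The NRF1-type sequence GCATGCGC was in 1 window, that of Ppat, at position 23 and read on the opposite strand, against 2.71% of all windows. The ETS-type sequence CCGGAAGT was in 1 window, that of Gart, against 3.89%. The ATF4-type sequence TGATGNAAT was in 0 of the 10 windows, against 0.965%. No window of these genes held more than 1 match, and a match is a description of letters, not of binding. G and C made up 53.7% to 77.7% of the bases in the windows of these genes, against a median of 52.7% over all windows. The shares over all windows were not matched for this.

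Ppat encodes the amidophosphoribosyltransferase that takes PRPP into the pathway, the step that IMP, AMP and GMP feed back on. It measured 10.4, 10.4, 23.2, 18.7 and 18.6 FPKM in mutator replicates 1 to 5, against 42.9, 38.9 and 37 FPKM in wild-type replicates 1 to 3. The highest mutator library was thus well under the lowest wild-type library, and the replicate 1 and 2 pair was the lowest, at 26.3% and 26.2% of the wild-type mean. The means were 17.8 ± 5.34 FPKM in mutator and 39.6 ± 2.99 FPKM in wild-type samples (SD, n = 4 and 3). The log2 change was -1.16 (SE 0.26; 95% interval -1.76 to -0.57; limma adjusted p = 0.04). Ppat was below the wild-type range in 4 of 4 mutator samples, but the call depended on the samples and the scaling. Under TPM, where 9.31% of all genes passed, its adjusted p was 0.32. Without mutator replicate 4 or 5 its change was -1.21 and -1.2 (adjusted p = 0.071 and 0.059), in fits that called 2.02% and 4.86% of all genes. The call was also lost in fits that called almost no gene. Leaving out the pair of mutator replicates 1 and 2 or wild-type replicate 1, 2 or 3 left 5, 5, 2 and 2 of 11949 genes called, with Ppat at -0.94, -1.11, -1.17 and -1.21 (adjusted p = 0.062, 0.11, 0.14 and 0.12). With the replicate block, the feeder marker mean or the Y-linked mean as a covariate 1, 3 and 0 genes were called (adjusted p of Ppat = 0.067, 0.37 and 0.15), and with no filter on level 43 of 34369 (adjusted p = 0.13). Over the 17 alternatives the change was -1.47 to -0.66 and the adjusted p 0.0094 to 0.37, and Ppat passed in 6 of them.

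Gart encodes a single protein that carries 3 of the early activities of the route, and Pfas encodes a glutamine-using enzyme that works between them. Gart (chromosome 16, 91621186 to 91646952) measured 34.7, 34, 39.7, 42.8 and 63.6 FPKM in mutator replicates 1 to 5, against 79.3, 55.7 and 58.9 FPKM in wild-type replicates 1 to 3. The groups overlapped through mutator replicate 5 alone, and the log2 change of -0.53 (95% interval -1.11 to 0.05) did not pass (limma adjusted p = 0.2). Of its exonic bases 19.7% are shared with Gm15964, an antisense gene listed at 0.975 to 1.81 FPKM in mutator and 0.984 to 1.58 FPKM in wild-type libraries, which is low beside Gart. Son, whose start lies 554 bases from that of Gart on the opposite strand and which encodes a splicing cofactor, measured 43.9 ± 7.85 FPKM in mutator and 57.8 ± 2.12 FPKM in wild-type samples, a log2 change of -0.41 that did not pass (limma adjusted p = 0.19), although its 5 mutator libraries were below its 3 wild-type libraries. Pfas (chromosome 11, 68985697 to 69008460) measured 16.9, 16.2, 21.7, 15.8 and 20.4 FPKM in mutator replicates 1 to 5, against 30.7, 20.3 and 21.8 FPKM in wild-type replicates 1 to 3. Wild-type replicate 1 was high and the remaining libraries of both groups were close, and the log2 change of -0.35 (95% interval -0.83 to 0.12) did not pass (limma adjusted p = 0.28).

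Paics encodes the enzyme that adds carbon dioxide and then aspartate to the growing ring. It was the most abundant of the 10 per length, at the 97.9th percentile of all genes tested. It measured 105, 108, 125, 129 and 161 FPKM in mutator replicates 1 to 5, against 251, 206 and 162 FPKM in wild-type replicates 1 to 3. The highest mutator library, replicate 5, almost met the lowest wild-type library, replicate 3. The log2 change of -0.65 (95% interval -1.2 to -0.1) did not pass (limma adjusted p = 0.12). The ratio of Ppat to Paics FPKM was 0.0988, 0.0962, 0.186, 0.145 and 0.116 in mutator replicates 1 to 5, against 0.171, 0.189 and 0.228 in wild-type replicates 1 to 3. Mutator replicate 3 was inside the wild-type range of this ratio and the other 4 libraries were under it.

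Adsl encodes adenylosuccinate lyase, which releases fumarate both on the way to IMP and on the branch to AMP. It (chromosome 15, 80948490 to 80970946) measured 15, 15.5, 17.3, 16.7 and 30.3 FPKM in mutator replicates 1 to 5, against 44.9, 27.3 and 28.7 FPKM in wild-type replicates 1 to 3. Replicates 1 to 4 were under all wild-type libraries, and replicate 5 was above wild-type replicates 2 and 3. The log2 change of -0.75 (95% interval -1.39 to -0.1) did not pass (limma adjusted p = 0.12). Atic encodes the enzyme that adds the last formyl carbon and closes the ring of IMP. It (ENSMUSG00000026192, chromosome 1, 71557150 to 71579631) measured 38.5, 38.7, 53.6, 59.6 and 61.2 FPKM in mutator replicates 1 to 5, against 90.9, 96.3 and 96.5 FPKM in wild-type replicates 1 to 3. The wild-type libraries were close together and the mutator libraries well below them, at 40.7% to 64.7% of the wild-type mean. The means were 53.3 ± 10.3 FPKM in mutator and 94.6 ± 3.17 FPKM in wild-type samples (SD, n = 4 and 3). The log2 change of -0.84 (SE 0.21; 95% interval -1.32 to -0.35) fell just short of the threshold (limma adjusted p = 0.051). It passed in 5 of the 17 alternatives, with adjusted p of 0.013 at the lowest and 0.61 at the highest.

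**Figure D2:**
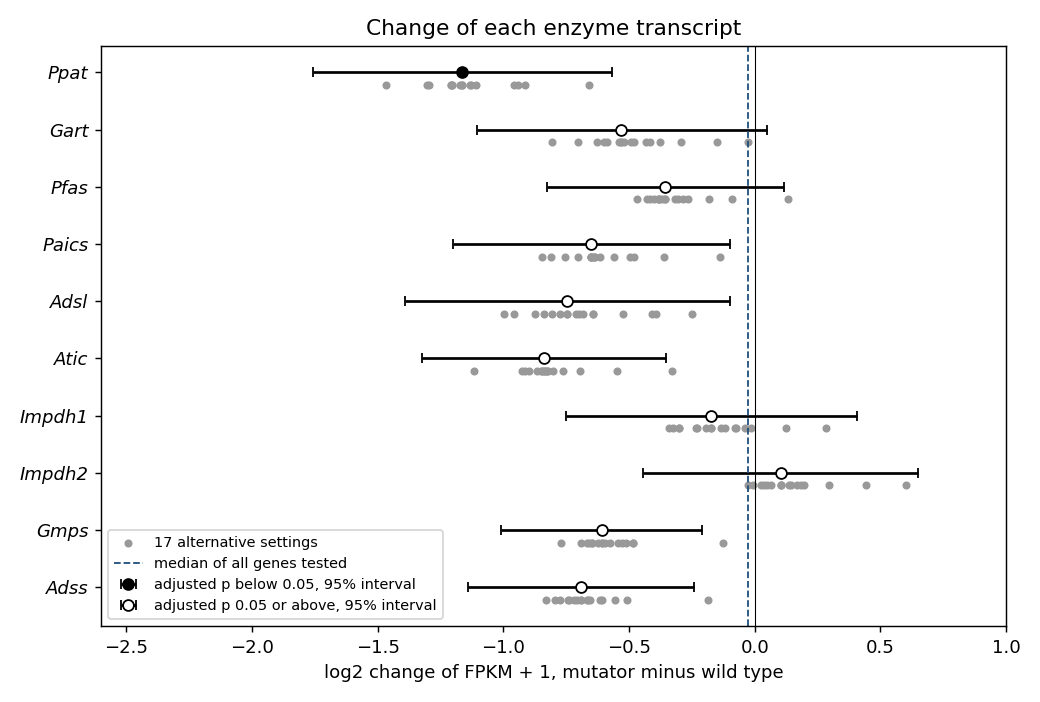
Log2 change of FPKM + 1, mutator minus wild type (horizontal axis), of the 10 enzymes from the top of the pathway down. Circles with bars are limma estimates with 95% intervals, filled where the adjusted p is below 0.05; grey points under them are the values in the 17 alternative settings, and the dashed line is the median of all genes tested. Ppat at -1.16 is the filled circle, and Impdh2 at 0.10 is the value above 0.

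Of the genes that turn IMP into GMP and AMP, those for the pair of IMP dehydrogenases did not differ detectably. Gmps and Adss were lower in every mutator library without passing the test. IMP dehydrogenase makes xanthosine monophosphate, the rate-setting step to GMP, and comes in 2 isozymes, of which IMPDH2 is the one that dividing cells mostly use. Impdh2 (chromosome 9, 108560286 to 108565584) measured 39.8, 40.8, 51.7, 37.7 and 58.1 FPKM in mutator replicates 1 to 5, against 56.6, 35.8 and 39.2 FPKM in wild-type replicates 1 to 3. The groups overlapped over most of their ranges, with a log2 change of 0.1 (95% interval -0.45 to 0.65; limma adjusted p = 0.8). Impdh1 (chromosome 6, 29200434 to 29216364), the isozyme typical of retina and resting cells, measured 6.74, 6.37, 9.47, 12.1 and 5.96 FPKM in mutator replicates 1 to 5, against 10.2, 7.39 and 10.9 FPKM in wild-type replicates 1 to 3. Its log2 change was -0.17 (95% interval -0.75 to 0.41; limma adjusted p = 0.67). Per length Impdh2 was the higher of the pair in every library, 3.12 to 9.75 times in mutator and 3.59 to 5.55 times in wild-type libraries. Their sum was 55.5 ± 8.44 FPKM in mutator and 53.4 ± 12.2 FPKM in wild-type samples (SD, n = 4 and 3). The sequences of the isozymes are related, and fragments shared between them were not examined.

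Gmps encodes GMP synthetase, which aminates xanthosine monophosphate. It (chromosome 3, 63976106 to 64022579) measured 9.03, 9.48, 12.6, 12 and 13 FPKM in mutator replicates 1 to 5, against 18.7, 16.2 and 20.1 FPKM in wild-type replicates 1 to 3. The groups did not overlap, and the log2 change of -0.61 (95% interval -1.01 to -0.21) did not pass (limma adjusted p = 0.066). Adss encodes adenylosuccinate synthetase, which starts the branch to AMP. It (chromosome 1, 177762962 to 177796511) measured 32.8, 31.1, 40.4, 36 and 45.7 FPKM in mutator replicates 1 to 5, against 69.3, 64.6 and 54 FPKM in wild-type replicates 1 to 3. The groups again did not overlap, and the log2 change of -0.69 (95% interval -1.14 to -0.24) did not pass (limma adjusted p = 0.064). The difference between these genes and the dehydrogenase genes was not tested.

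The libraries kept much the same order from gene to gene. Within the mutator samples the pair of replicates 1 and 2 was lowest for 7 of the 10 genes and replicate 5 highest for 7. The median over the genes was 51.4% of the wild-type mean in the pair, and 63%, 64.2% and 75.5% in mutator replicates 3, 4 and 5. Among wild-type libraries replicate 1 was highest for 7 genes. The 6 enzymes up to IMP summed to 221, 223, 280, 283 and 355 FPKM in mutator replicates 1 to 5, against 540, 444 and 405 FPKM in wild-type replicates 1 to 3. Of protein-coding genes outside the list, the 5 whose log2 values followed the members' mean pattern most closely over the 7 samples were Ncbp2, Mcm3, Rbm19, Tcp1 and Ruvbl1, with Pearson r of 0.996, 0.993, 0.992, 0.992 and 0.991 as a measure of likeness. Of these, Tcp1, a subunit of the chaperonin that folds actin and tubulin, measured 221 ± 42.8 FPKM in mutator and 335 ± 46.6 FPKM in wild-type samples, and Mcm3, part of the replicative helicase, 33.2 ± 5.76 and 47.6 ± 5.49 FPKM. The likeness includes the difference between the genotypes, which all 7 samples carry.

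**Figure D3:**
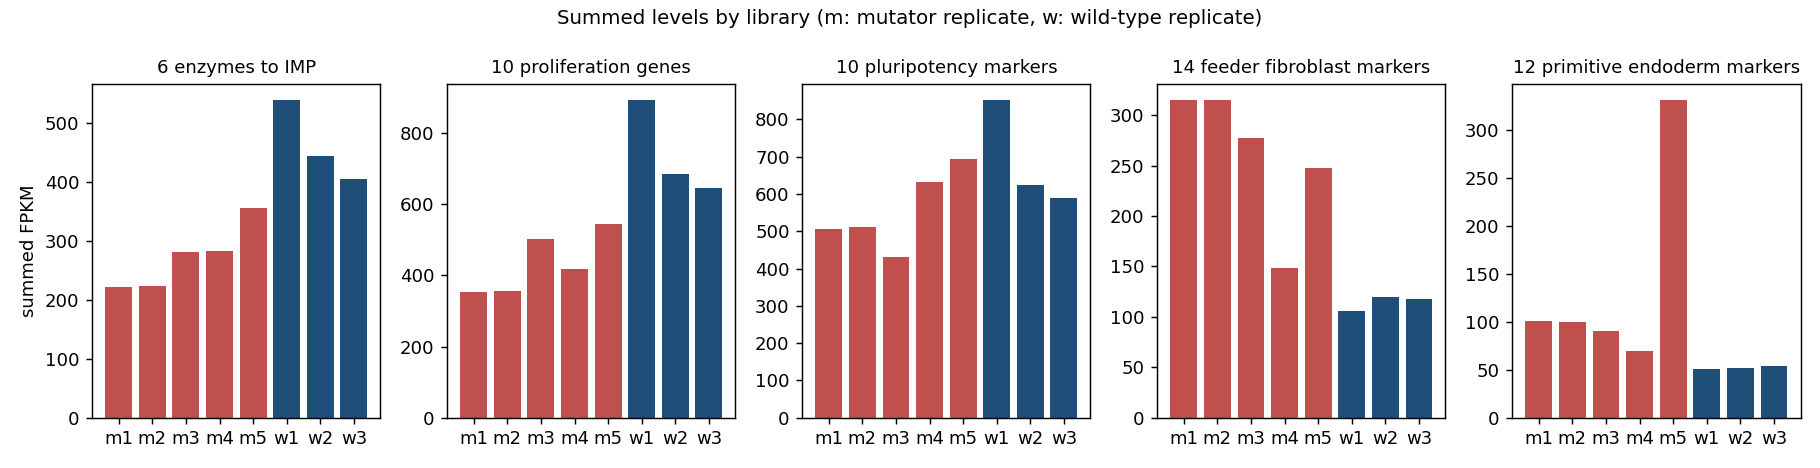
Summed FPKM (vertical axes, each from 0) in each library of the 6 enzymes up to IMP and of 4 marker lists; red bars are mutator replicates 1 to 5 and blue bars wild-type replicates 1 to 3. The enzymes summed to 221 to 355 FPKM in mutator and 405 to 540 FPKM in wild-type libraries. The sum of the feeder markers was 149 to 316 FPKM in mutator and 106 to 120 FPKM in wild-type libraries. Most feeder markers overlapped between the genotypes when taken singly. The sum of the primitive endoderm markers was highest in mutator replicate 5, at 332 FPKM.

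The summed levels of growth genes and of markers of other cell types also did not overlap between the genotypes. Most of their genes did not pass the test, and most feeder markers overlapped when taken singly. The 10 proliferation genes summed to 352 to 545.7 FPKM in mutator and 645.3 to 894.2 FPKM in wild-type libraries. Their median log2 change was -0.67, against -0.63 for the enzymes. All 5 mutator libraries lay below all 3 wild-type libraries for 8 of the 10 proliferation genes, against 15.9% of all genes tested. Of these 10, 2 fell, Pcna, the clamp of DNA polymerases, at a log2 change of -1.3 (limma adjusted p = 0.032), and Mcm5, a helicase subunit, at -0.87 (limma adjusted p = 0.044), and 8 did not pass, against 4.54% of all genes tested that fell. Mki67, a marker of cycling cells named after its values were seen, had a log2 change of 0.12. The 14 feeder fibroblast markers, 14 of 14 with a log2 change above 0 and none of them at 0 in all libraries, summed to 149 to 316 FPKM in mutator and 106 to 120 FPKM in wild-type libraries. Of these 14, 2 rose, Cyr61 at 2.02 and Fn1 at 1 on the log2 scale (limma adjusted p = 0.027 and 0.036); 2.95% of all genes tested rose. In all 5 mutator libraries 4 of the 14 were above all wild-type libraries, and the share of all genes that did so was not counted. The remaining 10 overlapped, among them Acta2, named after its values were seen, with 14.2 and 13.5 FPKM in mutator replicates 4 and 5, against 17 to 21.8 FPKM in wild-type libraries. Fn1 and Cyr61 gave 70.1 and 15.4 of the 149 FPKM in mutator replicate 4. In wild-type libraries Fn1 measured 43 to 45 FPKM and Cyr61 5.2 to 5.51 FPKM. Of the 248 FPKM in mutator replicate 5, Fn1, Ctgf, Cyr61 and Tagln gave 81.3, 62.1, 40 and 31.7 FPKM. Col3a1 and Postn, named after their values were seen, measured 1.31 and 1.04 FPKM there, under their wild-type ranges. Among mutator libraries the feeder sum was lowest in replicate 4, at 149 FPKM, where the 6 enzymes to IMP summed to 283 FPKM. The 12 primitive endoderm markers summed to 69.3 to 332 FPKM in mutator and 50.4 to 54.3 FPKM in wild-type libraries, the highest being mutator replicate 5, which was also the highest mutator sample for 7 of the 10 enzymes; 8 were tested and 0 passed in limma (5 at an unadjusted p under 0.05). The most nearly called, Pdgfra and Col4a2, had limma adjusted p of 0.064 and 0.092. With the feeder marker mean as a covariate the median change of the 10 enzymes was -0.39, and 0 passed, in a fit that called 3 of all 11949 genes. The 4 Y-linked genes summed to 1.65 to 6.6 FPKM in mutator replicates 1, 2 and 4 and to 68.6 or more in the other 5 libraries; of the 3 tested, 0 passed in limma and 0 had an unadjusted p under 0.05, with Uty and Ddx3y both at an adjusted p of 0.2. With the Y-linked mean as a covariate the median change of the enzymes was -0.45, and 0 of all genes passed. The part of growth state in the purine result was not tested.

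The genes that supply or share the pathway's intermediates, taken with its reported regulators, were called about as often as genes at large. Over these 7 lists 2 of 47 tested genes fell, 4.26%, against 4.54% of all genes tested, and 0 rose, against 2.95%. Counted in either direction, the genes called in these lists numbered 1 under TPM and 10 with array weights. Those fits called 9.31% and 23% of all genes. The number in these lists was 0 without mutator replicate 4, where 2.02% of all genes were called. It was also 0 in the fits named above that called 43 genes or fewer. Of 4 genes for PRPP synthesis, 0 passed in limma, and 0 had an unadjusted p under 0.05; the median log2 change was -0.39. Prps1, an X-linked PRPP synthetase gene, measured 24.7 ± 5.84 FPKM in mutator and 33.9 ± 7.11 FPKM in wild-type samples, with a limma adjusted p of 0.25, and Prpsap2, for an associated regulatory protein, had one of 0.27. Of 9 genes for formyl folate supply 7 were tested, of which 0 passed in limma (1 at an unadjusted p under 0.05), at a median of -0.16. Shmt1, for the cytosolic serine hydroxymethyltransferase, measured 49 ± 9.84 FPKM in mutator and 73.9 ± 17.9 FPKM in wild-type samples (limma adjusted p = 0.15). Aldh1l2, for a mitochondrial formyl folate dehydrogenase, measured 2.59 ± 0.67 FPKM in mutator and 1.72 ± 0.0942 FPKM in wild-type samples (limma adjusted p = 0.2). Of 5 genes for aspartate and glutamine supply 0 passed in limma (1 at an unadjusted p under 0.05), at a median of 0.08. Glul, for glutamine synthetase, measured 12.2 ± 6.46 FPKM in mutator and 23.2 ± 3.17 FPKM in wild-type samples (limma adjusted p = 0.11), and Slc1a5, for a glutamine carrier, 18.6 ± 4.17 and 13.1 ± 2.48 FPKM (limma adjusted p = 0.2).

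Of 16 genes for purine salvage and interconversion 10 were tested, of which 1 fell and 9 did not pass, at a median of -0.36. The gene that fell was Itpa, whose product hydrolyses inosine triphosphate and so cleans deaminated purines from the pool rather than salvaging bases. Itpa measured 11.3, 10.8, 13.7, 12.9 and 15.5 FPKM in mutator replicates 1 to 5, against 45.4, 29.3 and 28.2 FPKM in wild-type replicates 1 to 3. The groups were far apart, and the log2 change was -1.28 (SE 0.22; limma adjusted p = 0.027). Hprt, the X-linked salvage enzyme that returns hypoxanthine and guanine to IMP and GMP, was not called. It measured 58.7 ± 18.9 FPKM in mutator and 73.5 ± 3.83 FPKM in wild-type samples. Pnp and Nt5e of the same list changed in opposite directions, at -1.08 and 0.91 on the log2 scale. Neither passed (limma adjusted p = 0.093 and 0.073). Hprt, Pnp and Nt5e were named after their values were seen. Of 11 genes found for nucleotide kinases 10 were tested, of which 0 passed in limma (2 at an unadjusted p under 0.05), at a median of -0.52. Nme1 and Nme6, for nucleoside diphosphate kinases, had limma adjusted p of 0.095 and 0.16.

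The parallel route to pyrimidines had 1 gene of 5 that fell, Umps, and a median of -0.18. The log2 change was below 0 for 3 of the 5 genes and above 0 for 2. Cad, named after its values were seen, was above 0, at 0.62, and did not pass (limma unadjusted p = 0.023, adjusted p = 0.11). Cad measured 20.7 ± 5.02 FPKM in mutator and 13 ± 2.36 FPKM in wild-type samples. Umps, for uridine monophosphate synthase, which joins PRPP to the finished ring, measured 7.29, 7.3, 9.85, 10.1 and 14.6 FPKM in mutator replicates 1 to 5, against 31.5, 20.4 and 18.5 FPKM in wild-type replicates 1 to 3, a log2 change of -1.1 (limma adjusted p = 0.044). Of 6 genes found for regulators reported for this pathway, members of the MYC network and ATF4, 0 passed in limma (3 at an unadjusted p under 0.05), at a median of -0.49. Mycn measured 8.19, 7.67, 37.1, 16.4 and 17.7 FPKM in mutator replicates 1 to 5, against 44.1, 35 and 38.9 FPKM in wild-type replicates 1 to 3 (limma adjusted p = 0.12). Mutator replicate 3 was inside the wild-type range and the other 4 libraries were under it. Mlx, a partner in the same network, measured 7.72 ± 2.04 FPKM in mutator and 13.3 ± 3.19 FPKM in wild-type samples (limma adjusted p = 0.084).

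**Figure D4:**
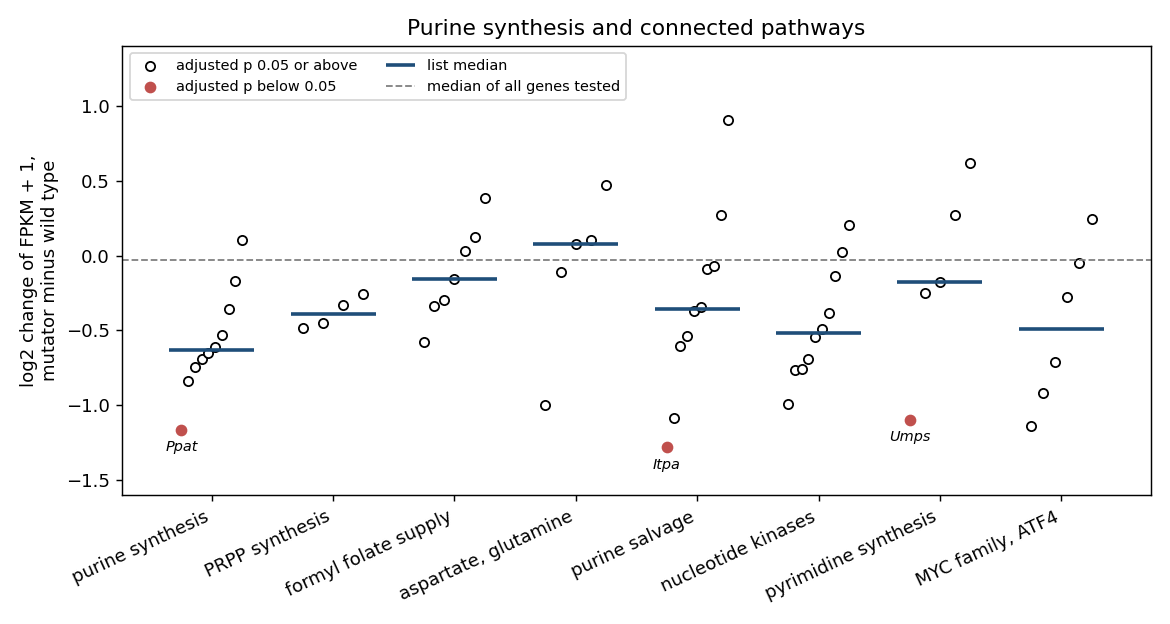
Log2 change of FPKM + 1, mutator minus wild type (vertical axis), of each tested gene in 8 lists, with the list median as a bar and the median of all genes tested as a dashed line. Filled points passed an adjusted p of 0.05; they are Ppat, Itpa and Umps, all below 0, and the purine synthesis list has a median of -0.63.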

How the data were processed

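RNA-seq values of 8 libraries were used as deposited: FPKM by the authors, 1 column per library, with STAR and Cufflinks named in the submitters' processing notes. Versions, genome build, annotation and strandedness are not given in the sources used here. Groups and replicate numbers come from the sample titles. Of 37305 rows, those of 265 repeated symbols were summed (the 10 members have 1 row each) and 31 NA cells kept missing. FPKM hold no depth, so no count test was run; relative depth was estimated from the smallest non-zero values of long genes, which are near 1 fragment each. Mutator replicates 1 and 2 were averaged as FPKM. Genes averaging 1 FPKM or more were tested on log2(FPKM + 1), which understates changes of low genes, with limma 3.58.1 in R 4.3.3 (trend, Benjamini-Hochberg, threshold 0.05). Same-numbered samples were not paired: their deviations correlated at 0.013, -0.012 and 0.051. Coordinates are GENCODE M21 (GRCm38) by gene ID, and not the authors' own.

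The members and gene lists were chosen with earlier results of these data known. Named besides the members are, by rule, up to 4 called genes of each list or 2 as values, genes starting within 1000 bases on the opposite strand, the 5 closest in pattern and Polg. One gene was taken out of a connected list and is not reported here. Python 3.11.15, pandas 2.3.3, numpy 2.4.6 and matplotlib 3.10.9 were used. Alternatives covered pseudocount, filter, scaling, sample weights, left-out samples, replicate block and covariates.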

Additional observations from a re-analysis of the deposited data

Results flagged for a closer look

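Among the 4 mutator samples, Adsl had 1 sample far from the others: mutator replicate 5 measured 30.3 FPKM, against 15.3 FPKM in the pair of replicates 1 and 2, 17.3 FPKM in replicate 3 and 16.7 FPKM in replicate 4. The gap to the nearest sample was 0.864 of the range. Chance marks about 1 in 20 groups, and 10 genes were examined. Without that sample the log2 change of Adsl was -0.96.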

How the results depend on the processing

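The 9 enzymes below 0 kept that direction in most of the 17 alternatives; those that turned were Pfas under TPM (0.13), Impdh1 under TPM and array weights (0.28 and 0.13), and Impdh2, above 0, without mutator replicate 5 or wild-type replicate 2 (-0.005 and -0.027; -0.027 to 0.297 over all left-out samples). TPM moved the median of all genes to 0.37; relative to it the enzymes had a median of -0.5 and 9 of 10 were below. The number of enzymes past the threshold was 1; it was 2 at a pseudocount of 0.1, 2 at a mean of at least 5 FPKM, 6 with median-of-ratios size factors, 4 with 8 libraries counted and 5 with array weights, where 9.06%, 11.2%, 18%, 18.4% and 23% of all genes were called, against 7.49%. It was 0 with no filter, under TPM, with the replicate block and with either covariate, and 0 to 1 with a sample left out. Genes called in the 7 connected lists numbered 2, and 5 with size factors, 6 with 8 libraries, 10 with array weights, 1 under TPM, 0 with no filter, the block or a covariate, and 0 to 3 with a sample left out. Enzymes whose libraries did not overlap numbered 5, against 15.9% of all genes tested. They numbered 0 under TPM, 7 with size factors, and 5 to 7 with a sample left out. In these other settings the share of all genes was not counted, so the numbers cannot be read as particular to the enzymes. TPM divides each library by its summed FPKM, which was 753985 to 1269265 in mutator and 1192982 to 1780534 in wild-type libraries. The cause of these shifts and of the unequal sums was not tested. Settings with 0 enzymes called few genes at all (0 to 43 with no filter, the block or a covariate, and 2 to 581 with a sample left out), except TPM, with 1113 of 11949. Depth is known only in relative terms, so no counting interval is given.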
